A study of Canis lupus familiaris with 6 samples.

Results

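The JAK kinases and STAT factors pass the signal of many cytokines from the cell surface to the nucleus. A cytokine draws its receptor chains together, the JAK kinases bound to those chains phosphorylate each other and the receptor, and a STAT factor docks there, is phosphorylated in turn, pairs with a partner and enters the nucleus to bind DNA. STAT2, with IRF9, serves type I and type III interferon receptors; STAT3 is best known for the IL-6 family, STAT5A and STAT5B for prolactin, growth hormone and the IL-2 and GM-CSF families, and STAT6 for IL-4 and IL-13. In epithelia STAT3 is studied in wound repair and carcinogenesis. Much of the pathway's regulation is by phosphorylation, which an RNA array does not measure.

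The transcripts of these genes were measured in MDCK cells, a dog kidney epithelial line, on 6 single-colour Agilent canine arrays. All arrays carried RNA from GFP-sorted MDCK-pTR cells, in which tetracycline switches on GFP-RasV12 and which also carry mCherry-β-catenin Δ131, an N-terminally truncated β-catenin. In the single culture group (3 arrays) these cells were grown alone, and in the mix culture group (3 arrays) each was grown with 10 MDCK mCherry-β-catenin Δ131 cells without RasV12, so that every cell of both groups carried the β-catenin transgene; both groups received tetracycline for 24 h and were plated at 12000000 cells on collagen-coated 10 cm dishes. Nothing states that the 3 arrays of a group came from separate cultures, so the p-values measure the spread between these samples, which may be technical. The lines are engineered cells in culture, and the comparison asks what being surrounded by cells without RasV12 changes in the RasV12 cells.

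The members were fixed by name as STAT2, STAT3, STAT4, STAT5A, STAT5B, STAT6, JAK1, JAK2 and TYK2, and each was represented by every non-control probe that carries its symbol. Of these 9 genes, 7 had such a probe, with 15 of the array's 43603 non-control probes, which carry 34378 gene names or identifiers in all. STAT4 and TYK2 were not analysed here. All 15 probes were well above background on all 6 arrays, and therefore all passed the filter that left 26623 probes for testing. A value given below as a normalised log2 signal is the log2 of the processed signal minus the 75th percentile of its array; a probe's brightness depends on its sequence, so levels were compared between arrays for 1 probe and never between probes. A change is the mean of mix culture minus the mean of single culture on that log2 scale, and a probe was called when its limma p-value, adjusted by Benjamini-Hochberg over all 26623 probes, was under 0.05.

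On the arrays, 61.11% to 65.66% of non-control spots were well above background and none was saturated. Replicate 1 of both groups lay on slide 1 and replicates 2 and 3 on slide 2, which were read with different software versions and scan resolutions. The slide term was called for 47.2% of the tested probes, so each change is also given with the slide as a block. Among 8 measured epithelial markers, all 8 were well above background on all 6 arrays, among them CDH1, EPCAM and KRT18, with a summed signal of 125000 to 160000 in single culture and 114000 to 131000 in mix culture. CDH1 itself, E-cadherin, had a change of -0.47 that was called with the slide as a block (adjusted p = 0.0442, limma). It was not called without a block (adjusted p = 0.38) or with the replicate number as a block (adjusted p = 0.0759). With the slide as a block it was the only marker called of the 8, against 3.23% of all tested probes called lower. Of the 8 immune markers 5 were well above background on all arrays, and their summed signal ran from 277 to 411 in single culture and from 272 to 412 in mix culture, with PTPRC and LYZ well above background on none. The endothelial sum was 937 to 2910 against 860 to 3380, with TEK well above background on no array. The fibroblast sum was 188 to 459 against 168 to 439, with COL3A1, PDGFRA and DCN well above background on none. The summed signals of these 3 lists overlapped between the groups. Their part in the results below was not tested.

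The probes are the measuring sequences, and 6 of them are shown so that the part of the transcript behind each main value can be seen. Each is written 5′ to 3′ as the array file gives it, all in lower case because no stretch is singled out. The coordinates are those of the array file, on CanFam3.1. The STAT2, STAT3 and JAK1 probes shown match a genomic stretch longer than the probe, as a probe that crosses an exon junction does, and the other probes shown match 1 continuous stretch.
STAT2, transcript position 1601, chr10:645979-646167, minus strand: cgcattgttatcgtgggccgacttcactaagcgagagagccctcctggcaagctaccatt
STAT3, transcript position 1548, chr9:20601349-20601507, plus strand: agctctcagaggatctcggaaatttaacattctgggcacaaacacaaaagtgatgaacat
STAT5A, transcript position 2258, chr9:20617378-20617437, minus strand: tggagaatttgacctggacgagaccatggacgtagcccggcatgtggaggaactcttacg
STAT5B, transcript position 2364, chr9:20710706-20710765, plus strand: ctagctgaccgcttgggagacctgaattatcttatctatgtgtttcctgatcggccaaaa
JAK1, transcript position 2992, chr5:45400137-45401107, plus strand: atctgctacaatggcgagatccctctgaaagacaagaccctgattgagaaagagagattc
JAK2, transcript position 3713, chr1:93435694-93435753, plus strand: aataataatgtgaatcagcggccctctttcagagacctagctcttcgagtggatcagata

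STAT3, STAT5A and STAT5B are neighbours on chromosome 9, and STAT2 and STAT6 both lie on chromosome 10. Of the 15 probes, 7 match a genomic stretch that is longer than the probe. A search for shared runs of 20 bases over the named and unnamed probes of the array found such runs between 1 pair of member probes and between no member probe and a probe of another gene. That pair is STAT3 at positions 3169 and 3175, which overlap by 54 transcript positions and are not independent measurements. The paralogues STAT5A and STAT5B therefore shared no run of 20 bases between their probes. Probes were compared with probes only, so a match of a probe to the transcript of the paralogue was not tested.

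None of the 15 probes was called between mix and single culture in the fit without a block. STAT2 was the one member whose groups did not overlap, at 1.58-fold in mix culture, and it was called once the slide was a block. Over all tested probes the groups did not overlap for 16.5%. The single JAK2, STAT5A and STAT6 probes and all STAT3 and STAT5B probes had small positive changes, and all 5 JAK1 probes had small negative ones. The count of 0 called compares with 0.871% of all tested probes called, or 0.804% called higher, and 1 of 15 had an unadjusted p under 0.05 against 8.73% of all. On the same values the methods' t-test, unpaired with equal variances, also gave 0 called and 1 with an unadjusted p under 0.05. With the slide as a block 1 of 15 was called, against 7.22% of all tested probes, and 5 of 15 had an unadjusted p under 0.05, against 25.9% of all. In bulk RNA of sorted cells, fewer expressing cells and less RNA per cell cannot be told apart for any of these values.

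**Figure D1:**
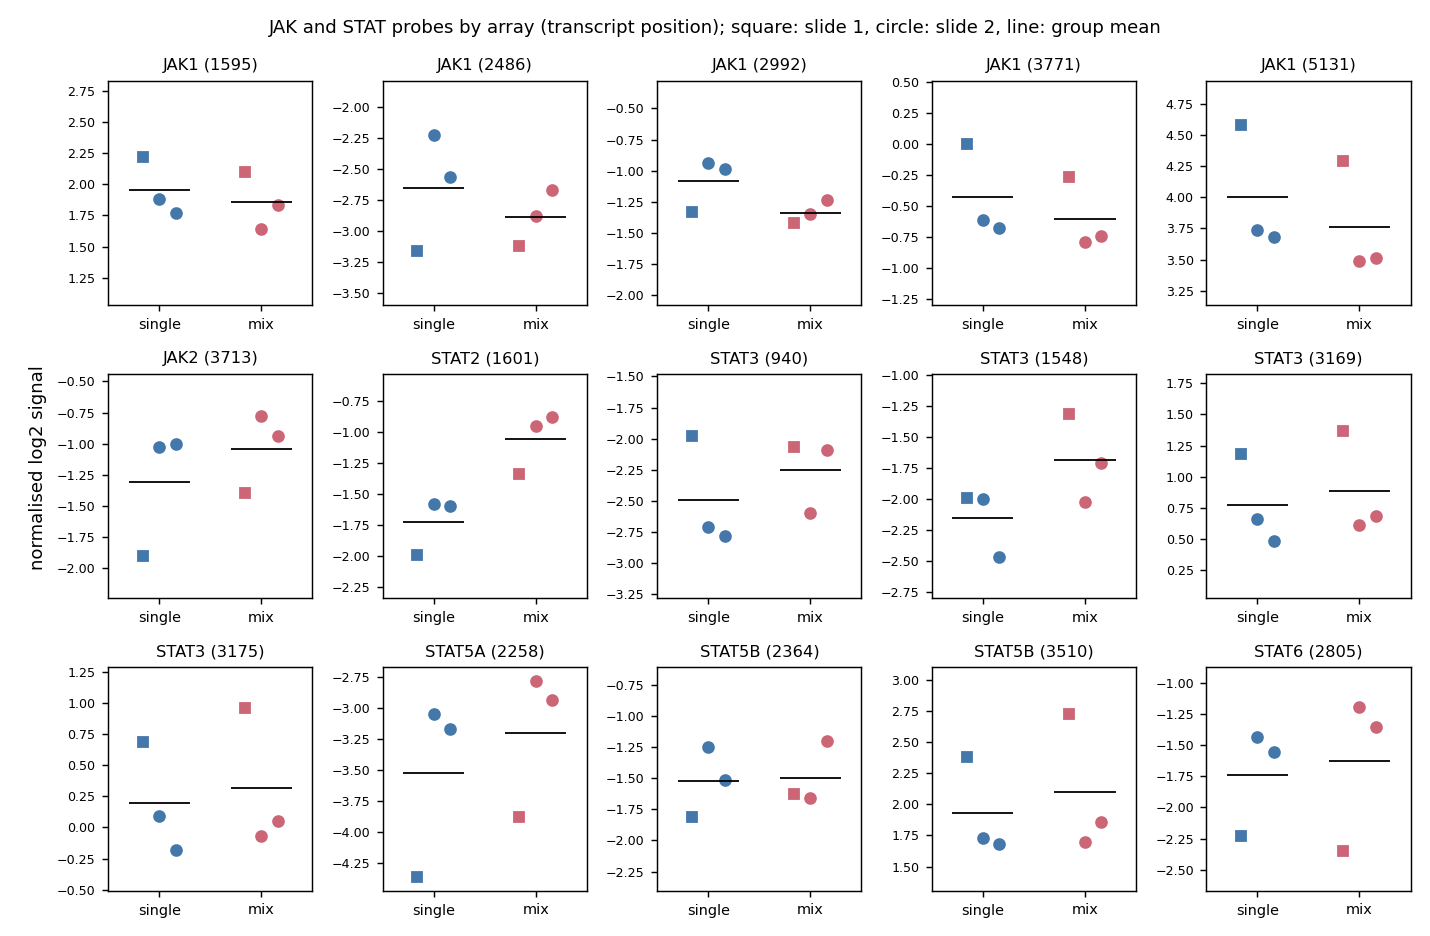
Normalised log2 signal (vertical axis) of each of the 15 probes in single culture (blue) and mix culture (red), 1 point per array, with the transcript position of the probe in brackets; squares are slide 1, circles slide 2, and lines group means. The groups do not overlap only for STAT2, against 16.5% of all tested probes, and in most panels the squares stand apart from the circles.

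STAT2 is the STAT factor that binds IRF9 and carries the activation domain of the interferon-stimulated complex ISGF3. Its processed signal was 51.9, 55.9 and 57.0 in single culture replicates 1, 2 and 3, and 92.3, 93.7 and 87.3 in the mix culture replicates. The normalised log2 signals were -1.99, -1.58 and -1.60 in single culture and -1.34, -0.95 and -0.88 in mix culture. The lowest mix culture array was thus above the highest single culture array on both scales. The group means were -1.72 ± 0.23 and -1.06 ± 0.25 (SD, n = 3 each), a change of 0.66 with a standard error of 0.20 and a 95% confidence interval of 0.19 to 1.13. As a fold this was 1.58, with an interval of 1.14 to 2.20.

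The STAT2 change was not called without a block (limma, unadjusted p = 0.0123, adjusted p = 0.324). With the slide as a block it was called (adjusted p = 0.00696, standard error 0.10), and likewise with the replicate number as a block (adjusted p = 0.0178, standard error 0.11). The difference was 0.65 on slide 1, where each group has 1 array, and 0.67 on slide 2. Between same-numbered arrays it was 0.65, 0.63 and 0.71, higher in mix culture in 3 of 3. The size of the difference therefore varied little within slides, and the 2 fits differ in their error and not in the change. Leaving out 1 array at a time without a block gave changes of 0.53 to 0.80 and adjusted p-values of 0.206 to 0.848. A separation of the 3 arrays of each group was found for 16.5% of all tested probes, and 3.35% of them had a higher change than STAT2. With 3 arrays a group, the smallest p that an exact two-sided permutation test can give is 0.10.

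**Figure D2:**
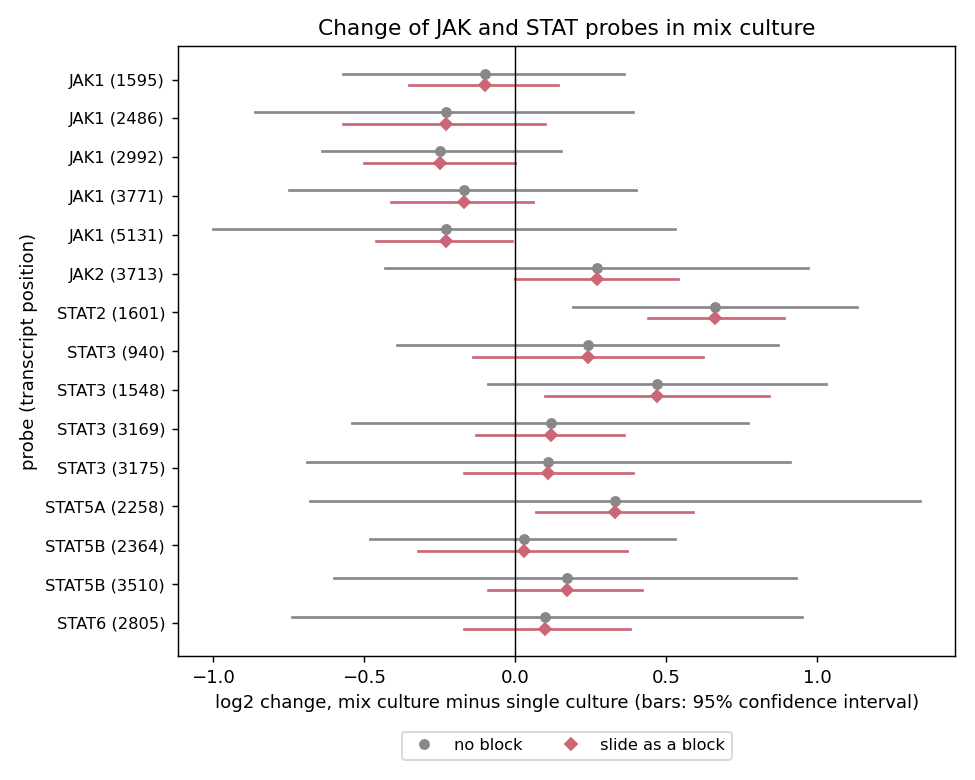
Log2 change in mix culture against single culture (horizontal axis) for each probe, with its 95% confidence interval, from the limma fit without a block (grey) and with the slide as a block (red). STAT2 lies at 0.66 with both intervals above 0, and the 5 JAK1 probes lie between -0.25 and -0.10.

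STAT3, the main STAT factor of the IL-6 family, was read by 4 probes. At position 1548 the signals were -1.99, -2.00 and -2.47 in single culture and -1.32, -2.02 and -1.71 in mix culture, so that mix culture replicate 2 lay among the single culture arrays. The change was 0.47 with a standard error of 0.24, which was not called without a block (adjusted p = 0.692, limma) or with the slide as a block (adjusted p = 0.118). At position 940 the signals were -1.98, -2.71 and -2.78 against -2.07, -2.60 and -2.09, a change of 0.24 with a standard error of 0.27. That probe differed by -0.08 on slide 1 and by 0.40 on slide 2, so the slides did not share a direction. The overlapping probes at 3169 and 3175 had changes of 0.12 and 0.11, with standard errors of 0.28 and 0.34. All 4 STAT3 probes were higher in mean in mix culture, and the interval of the mean over them, 0.23 (95% confidence interval -0.40 to 0.86), spanned 0.

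STAT5A and STAT5B are closely related STAT factors of prolactin and GM-CSF signalling. The STAT5A signals were -4.36, -3.05 and -3.17 in single culture and -3.88, -2.78 and -2.94 in mix culture. The groups overlapped because replicate 1 of both groups was lower than the other arrays. Each mix culture array was above the single culture array of its number, by 0.48, 0.28 and 0.23. The change was 0.33 with a standard error of 0.43 without a block (adjusted p = 0.940, limma) and of 0.11 with the slide as a block, which gave an unadjusted p of 0.0192 and an adjusted p of 0.120. The processed STAT5A signal was 10.0 to 20.1 in single culture and 15.8 to 26.4 in mix culture. STAT5B had a change of 0.03 at position 2364 (standard error 0.21) and of 0.17 at position 3510 (standard error 0.32), with adjusted p-values of 0.989 and 0.964. The differences of STAT5B at 2364 were 0.18, -0.41 and 0.30 between same-numbered arrays and had no common direction. A difference between STAT5A and STAT5B in their response was not tested.

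STAT6, the STAT factor of IL-4 and IL-13, had signals of -2.23, -1.43 and -1.55 in single culture and -2.35, -1.19 and -1.35 in mix culture at position 2805. Its change was 0.10 with a 95% confidence interval of -0.74 to 0.95 (adjusted p = 0.981, limma). The mix culture array was lower by 0.12 on slide 1, whereas mix culture was higher by 0.21 on slide 2.

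JAK1, the kinase shared by interferon, IL-6 family and common gamma chain receptors, was the best covered member, with 5 probes along its transcript on chromosome 5. The changes from the first to the last probe position were -0.10 at 1595, -0.23 at 2486, -0.25 at 2992, -0.17 at 3771 and -0.23 at 5131. At position 2992 the signals were -1.33, -0.94 and -0.99 in single culture and -1.42, -1.35 and -1.24 in mix culture. At position 5131 they were 4.58, 3.74 and 3.68 against 4.29, 3.49 and 3.51. At both positions each mix culture array was below the single culture array of its number, as it was at 3771, while the groups overlapped at all 5. None was called in either fit: the adjusted p-values (limma) were 0.803 to 0.962 without a block and 0.185 to 0.565 with the slide as a block. The probes at 2992 and 5131 had unadjusted p-values of 0.0496 and 0.0461 with the slide as a block. The mean over the 5 JAK1 probes had a change of -0.20 with a standard error of 0.15 and a 95% confidence interval of -0.56 to 0.16 (adjusted p = 0.811, limma). The 5 probes read 1 transcript of the same 6 RNA samples, so their shared sign is not 5 observations.

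JAK2, the kinase of growth hormone, prolactin and erythropoietin receptors, had signals of -1.90, -1.03 and -1.0 in single culture and -1.40, -0.78 and -0.94 in mix culture at position 3713. Mix culture was higher between same-numbered arrays by 0.50, 0.25 and 0.06, and the groups overlapped. The change was 0.27 with a standard error of 0.29 (adjusted p = 0.918, limma) and was not called with the slide as a block (adjusted p = 0.194). A difference between the JAK1 and JAK2 changes was not tested.

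Across the 15 probes 10 were higher and 5 lower in mix culture, with a median change of 0.11; over all tested probes 42.0% were higher, with a median of -0.05. The sign was the same on both slides for 11 of 15 probes, against 70.7% of all, and the same in all 3 same-numbered pairs for 6 of 15, against 48.4% of all. These shares count several probes of 1 gene, and both probes of the overlapping STAT3 pair are among the 11 and not among the 6. The standard errors were 0.17 to 0.43 without a block and 0.10 to 0.16 with the slide as a block, a median ratio of 2.42 between the 2 fits.

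The slide difference of the members went with the base composition of their probes. The mean of slide 2 minus the mean of slide 1, each holding both groups in equal number, ran from -0.85 to 1.13 over the 15 probes and was larger in size than the culture change for 12 of them. All 7 probes with a G + C content of at most 40% were dimmer on slide 2, and 7 of the 8 with a higher content were brighter there. The exception was STAT3 at position 940. Over the 15 probes the slide difference and the G + C content, which was 33.3% to 55.0%, had a Pearson correlation of 0.88 and a Spearman correlation of 0.86, while the Pearson correlation over all 26623 tested probes was 0.40. The points share the same 6 arrays, and the correlation is a description across probes. Within JAK1 the probes at 2486 and 2992 were brighter on slide 2 and those at 1595, 3771 and 5131 dimmer, although they read 1 gene. The culture change itself had a Pearson correlation with G + C content of 0.46 over the 15 probes and of -0.10 over all tested probes.

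**Figure D3:**
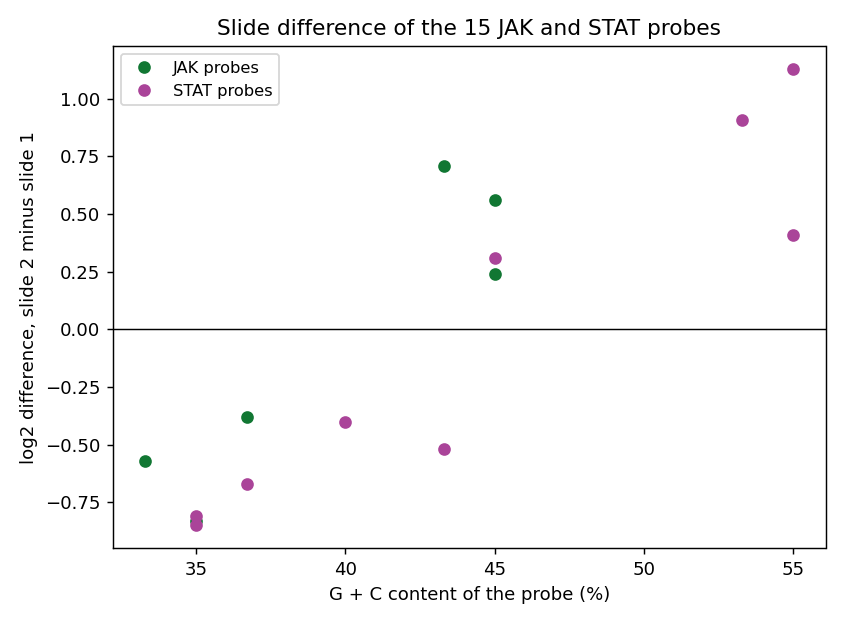
Difference between the slide means, slide 2 minus slide 1, in log2 units (vertical axis) against the G + C content of the probe in percent (horizontal axis) for the 15 probes, JAK probes in green and STAT probes in purple. The 7 probes at or below 40% all lie under 0.

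The genes whose probes followed STAT2 most closely over the 6 arrays, among 15488 named probes well above background on all of them, were BPGM with a Pearson r of 0.999, FOSL2 with 0.998 and PSMB10 with 0.997. BPGM is an enzyme of 2,3-bisphosphoglycerate metabolism, FOSL2 an AP-1 subunit and PSMB10 an immunoproteasome subunit. An r above 0.9 with STAT2 was found for 356 of these probes, and the 6 points share slide and group, so the ranking is a description. The changes of BPGM, FOSL2 and PSMB10 were 0.79, 0.85 and 0.71. None was called without a block (adjusted p = 0.291, 0.256 and 0.266, limma). All were called with the slide as a block (adjusted p = 0.00393, 0.00276 and 0.0053, limma). These genes were picked for their likeness to STAT2 on these arrays, so sharing its pattern of calls follows from the choice.

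The surroundings of the pathway were followed with 7 gene lists, each gene read by its brightest tested probe. The lists were chosen with earlier results of these data known. The counts below, and the shares over all probes beside them, are therefore descriptions and do not test the lists. Among the STAT partners, proteins that bind STAT factors or act with them, 15 of 18 listed genes were tested, 11 higher and 4 lower, with a median change of 0.12, and 3 were called, all higher, against 0.804% of all tested probes called higher. PARP14, an ADP-ribosyltransferase known as a STAT6 cofactor, rose from -0.88, -0.53 and -0.64 to 0.86, 1.23 and 1.04, a change of 1.73 with a standard error of 0.18 (adjusted p = 0.00784, limma). PARP9 rose by 1.62 (standard error 0.21, adjusted p = 0.0194) and DTX3L, the ubiquitin ligase that works with PARP9, by 1.36 (standard error 0.19, adjusted p = 0.0281). The groups did not overlap for any of these genes. Of the 3 DTX3L probes 2 were called, and the other had a change of 1.04 (adjusted p = 0.0823). With the slide as a block 4 partners were called, all higher, against 3.99% of all tested probes called higher. The one added was NMI, a STAT-binding protein named here after its value was seen, at 0.67 (adjusted p = 0.0206 with the slide as a block).

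IRF9, the DNA-binding partner of STAT2, was read by 2 probes that disagreed. The probe with the higher signal, which stood for IRF9 in the list, had signals of 8.57, 8.45 and 8.57 in single culture and 8.47, 8.19 and 8.54 in mix culture, a change of -0.13 with a standard error of 0.16 (adjusted p = 0.935, limma). The other had 1.07, 1.42 and 1.18 against 1.78, 2.15 and 2.07, so its groups did not overlap. Its change was 0.77 with a standard error of 0.18, not called without a block (adjusted p = 0.16) and called with the slide as a block (adjusted p = 0.00626). The sign of the IRF9 change therefore depended on the probe, and the change of the brighter probe was smaller than its standard error.

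Of the pathway inhibitors, which include the SOCS and PIAS families, 16 of 19 were tested, 6 higher and 10 lower, with a median of -0.09. Without a block 1 of the 16 was called, higher in mix culture, against 0.804% of all tested probes called higher. USP18, an ISG15 protease that also blocks JAK1 at the interferon receptor, rose from -3.01, -2.51 and -3.05 to -1.23, -1.19 and -1.32, a change of 1.61 with a standard error of 0.19 (adjusted p = 0.0124, limma). With the slide as a block 2 inhibitors were called lower, SOCS2 at -0.65 and PIAS3 at -0.56, both named after their values were seen. The background of probes called lower in that fit was 3.23%. All 4 list genes called without a block, USP18, PARP14, PARP9 and DTX3L, lost their calls when single culture replicate 3, mix culture replicate 2 or mix culture replicate 3 was left out, each from slide 2. All 4 were called with the slide and with the replicate number as a block, the latter against 5.29% of all tested probes. Every one of the 232 probes called without a block was also called in each of these 2 fits. The calls of the 4 genes with a block therefore follow from their choice, and the share over all tested probes does not test them.

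Among the cytokine ligands of the pathway, interferons not counted, 12 of 24 were tested, 6 higher and 6 lower, with a median of -0.03. None was called without a block and 2 were called lower with the slide as a block, against 3.23% of all tested probes. CSF2, which encodes GM-CSF, a cytokine whose receptor signals through JAK2 and STAT5, had signals of 3.07, 3.96 and 3.79 in single culture and 2.14, 1.48 and 2.11 in mix culture. Its change was -1.70 with a standard error of 0.29 (adjusted p = 0.0622 without a block, 0.00722 with the slide as a block, limma), and its other probe gave -1.72. Its difference was -0.93 on slide 1 and -2.08 on slide 2. The other was PRL, prolactin, at -0.92, named after its value was seen and well above background on only 1 of 3 mix culture arrays. Among the cytokine receptors 14 of 32 were tested, 2 higher and 12 lower, with a median of -0.10 and none called without a block. IFNLR1, a type III interferon receptor chain, had a change of -0.57 and was called with the slide as a block (adjusted p = 0.0426, limma), not with the replicate number as a block (adjusted p = 0.0757). It was the only 1 of the 14 called with the slide as a block, against 3.23% of all tested probes called lower. Its signals were low, at -3.70, -3.81 and -3.52 in single culture and -4.28, -4.06 and -4.41 in mix culture. The lowest signal well above background was -5.78 to -5.22 on these arrays.

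The textbook target genes of 3 STAT factors were also counted. Of the STAT3 targets 14 of 22 were tested, 7 higher and 7 lower, with a median of -0.02; of the STAT5 targets 8 of 12, 1 higher and 7 lower, with a median of -0.30; of the STAT6 targets 6 of 11, 1 higher and 5 lower, with a median of -0.14. None was called without a block. With the slide as a block 2 STAT3 targets and 4 STAT5 targets were called, all lower, and no STAT6 target, against 3.23% of all tested probes called lower in that fit. With the replicate number as a block 1 STAT3 target and 3 STAT5 targets were called, against 5.29% of all tested probes called in either direction. BCL2L1 was no longer among them (adjusted p = 0.0522, limma). CCND1, cyclin D1 and a member of both lists, had signals of 3.64, 4.48 and 4.45 in single culture and 2.92, 3.95 and 3.52 in mix culture, a change of -0.73 with a standard error of 0.33 (adjusted p = 0.629 without a block, 0.0160 with the slide as a block, limma). The other STAT3 target called was BCL2L1 at -0.51, which is also on the STAT5 list, and the remaining STAT5 targets called were SOCS2 at -0.65 and CCND2 at -0.55; all 3 were named after their values were seen. These genes answer to many other inputs, and the STAT3 and STAT5 lists share members, so the counts are not independent.

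**Figure D4:**
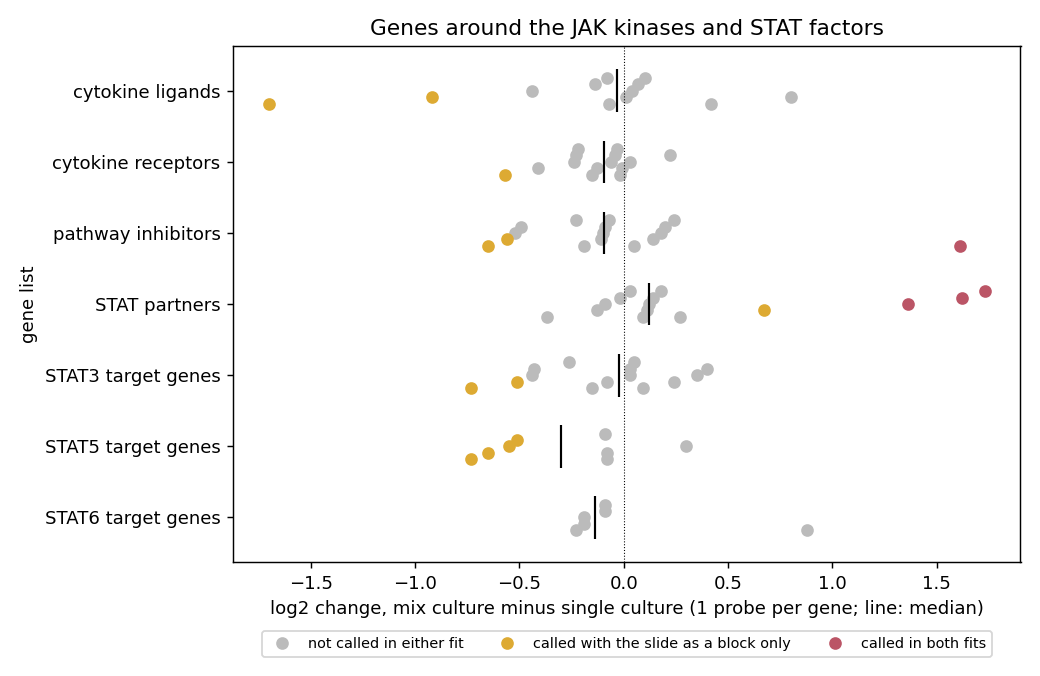
Log2 change in mix culture against single culture (horizontal axis) of each tested gene of the 7 lists (vertical axis), 1 point per gene, coloured by whether the limma fit called it without a block, only with the slide as a block, or not at all; short lines are list medians. The 4 genes called in both fits lie at 1.36 to 1.73, and the STAT5 targets have the lowest median, -0.30.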

How the data were processed

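RNA was labelled with Cy3 and hybridised to Agilent canine arrays; the authors deposited 1 scanner file per array with spot intensity values, made with Feature Extraction 11.5.1.1 (slide 1) and 12.1.1.1 (slide 2), and a table of log2 values whose columns for mix culture replicates 2 and 3 each matched the other's scanner file. The background-corrected processed intensity was used, outlier spots (5 to 9 per array) were dropped, spots of a probe were averaged, log2 was taken and the 75th percentile of each array subtracted. A probe was tested if all 3 arrays of one or both groups had it well above background, using limma 3.58.1 in R 4.3.3, without a block, adjusted by Benjamini-Hochberg. Replicate numbers were taken as pairing the arrays: deviations from group means correlated by 0.801, 0.53 and 0.572 between same-numbered arrays. Same-numbered arrays also share a slide, so these correlations cannot tell a pairing from a shared slide. Differently numbered arrays on slide 2 correlated more than the same-numbered ones there, by 0.61 and 0.632. Which arrays belong together is therefore not settled for any replicate number. The fit without a block was tested on simulated data that held no slide effect, so that test does not cover the slide difference of these arrays. Named genes were all members, up to 3 called genes per list (otherwise the largest called with the slide as a block), the 3 genes closest to STAT2, and IRF9. Members and lists were chosen with earlier results of these data known. Tables of promoter and protein sequence were not used here. Precision is limited by 3 arrays per group.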

Additional observations from a re-analysis of the deposited data

How the results depend on the processing

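Of 240 member values under 16 alternatives, 216 kept direction and side of the threshold, 6 became called and 18 changed sign. STAT2 kept its direction in all 16, but its size depended on the processing. Its change was 0.66 without a block and 0.40 after normexp (standard error 0.11, adjusted p = 0.286, limma). STAT3 at positions 940 and 1548 and JAK1 at 2486 and 2992 changed sign in none. The number of member probes called was 0 without a block and in each fit that left out 1 array, 1 (STAT2) with the slide as a block, with the replicate block, with the replicate block after exchanging mix culture replicates 2 and 3 (crossed), and on slide 2 alone, and 2 (STAT2 and STAT5A, the latter with an adjusted p of 0.0456) from the deposited table. Over all probes 232 were called without a block, 1923 with the slide as a block, 1408 with the replicate block, 1459 with it crossed, 998 on slide 2 alone, 4077 from the deposited table, 132 after normexp, 142 among probes well above background on all 6 arrays, 8 by the methods' t-test, and 91 to 247 without 1 array. The share of calls that were higher was 92.2% without a block and 55.3% with the slide as a block. Without a block 76 list genes were tested and 4 were called. The number called was 13 with the slide as a block, 11 with the replicate block, 12 with it crossed and 7 on slide 2 alone. It was 17 from the deposited table, 0 by the methods' t-test and 0 to 5 without 1 array. Of all tested probes 0.871% were called without a block, 7.22% with the slide as a block and 5.29% with the replicate block. STAT5B at 2364 changed sign after normexp (-0.03) and on slide 2 alone (-0.05). The other sign changes came from leaving out 1 array: JAK1 at 1595 ranged from -0.22 to 0.03 (0.01 without mix culture replicate 2), at 3771 from -0.34 to 0.04 and at 5131 from -0.49 to 0.06, JAK2 from -0.02 to 0.45, STAT3 at 3169 from -0.13 to 0.32 (-0.03 without single culture replicate 3) and at 3175 from -0.21 to 0.36 (-0.08 without the same array), STAT5A from -0.09 to 0.67, STAT5B at 2364 from -0.12 to 0.16 and at 3510 from -0.15 to 0.39, and STAT6 from -0.15 to 0.46 (-0.12 and -0.04 without mix culture replicates 2 and 3). Leaving out 1 array leaves the slides unequal between groups; beyond that the cause was not tested. The replicate block changed no member call other than STAT2. With 3 arrays a group and standard errors up to 0.43, small changes were not detectable without a block. Promoter motifs were not run.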
